A study of Mus musculus with 12 samples.

Results

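Calcium-calmodulin kinases were followed as 10 genes, namely Camk2a, Camk2b, Camk2d, Camk2g, Camkk1, Camkk2, Camk4, Camk1, Camk1d and Camk1g, in medial prefrontal cortex (PFC) of Fyn null and control mice. The members were all probe sets to which the platform annotation gives one of these symbols, 31 of the 45101 on the array. They covered 9 of the 10 genes, with 6 probe sets for Camk2a, 1 for Camk2b, 7 for Camk2d, 2 for Camk2g, 4 for Camkk2, 5 for Camk4, 2 for Camk1, 3 for Camk1d and 1 for Camk1g, and none for Camkk1. A further 2 probe sets, 1418954_at for Camkk1 and 1455869_at for Camk2b, are unnamed in that annotation but carry these genes in the gene table of the study, so their values are given separately and are not in any count of members. The study picked the probe sets of that table on arrays of several brain regions, these PFC samples among them, so their changes are not independent evidence.

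Controls were B6129SF2/J mice and Fyn null mice were B6;129S7-Fyntm1Sor/J, which carry a disrupted Fyn gene in every cell. These are separate stocks, and genotype and stock cannot be told apart. All mice were males of about 12 weeks that had been accustomed to saline injections, and PFC was taken 4 h after intraperitoneal saline or 3 g/kg ethanol, a dose that abolishes the righting reflex. Each genotype was thus studied after saline and after ethanol, which makes 4 groups of 3 arrays, and a single array carried a pool of PFC RNA from 3 animals. The labels and the paper differ on the number of mice per group.

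Calcium entering a neuron binds calmodulin, and calcium-calmodulin then activates these serine/threonine kinases. The kinase kinases encoded by Camkk1 and Camkk2 phosphorylate the kinases of Camk1, Camk1d, Camk1g and Camk4, and CaMKIV in the nucleus phosphorylates the transcription factor CREB. CaMKII, a holoenzyme assembled from the subunits of Camk2a, Camk2b, Camk2d and Camk2g, is the most abundant kinase of the postsynaptic density of forebrain excitatory synapses and is required for long-term potentiation.

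The sequences just before the start of Camkk1, a kinase kinase whose probe set was higher in all ethanol pools, and of Camk1, a substrate of the kinase kinases, are shown for reference, a choice made with the values and the matches known. They are RefSeq promoter windows of build GRCm38.p6, 250 bases each, at chr11:73018738-73018987 on the plus strand and chr6:113343923-113344172 on the minus strand. Capitals mark TGACG or its reverse complement CGTCA, the core of the CREB binding site, searched on both strands.
Camkk1: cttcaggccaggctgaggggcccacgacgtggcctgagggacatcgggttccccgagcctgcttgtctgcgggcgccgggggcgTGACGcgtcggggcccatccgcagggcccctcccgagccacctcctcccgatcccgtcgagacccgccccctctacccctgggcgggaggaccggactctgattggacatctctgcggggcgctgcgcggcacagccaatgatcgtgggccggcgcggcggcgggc
Camk1: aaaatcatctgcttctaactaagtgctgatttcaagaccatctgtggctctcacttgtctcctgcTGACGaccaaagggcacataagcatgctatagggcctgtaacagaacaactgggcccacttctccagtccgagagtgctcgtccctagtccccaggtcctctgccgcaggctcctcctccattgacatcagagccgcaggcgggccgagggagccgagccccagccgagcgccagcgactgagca
Each held 1 match, which begins 166 bases before the start of Camkk1 and 185 bases before that of Camk1. The other 6 member windows searched, 2 of Camk1d and 1 each of Camk1g, Camk2d, Camkk2 and Camk2b, held 0 matches, and 17.8% of the 32851 promoter windows of the same length hold at least 1. A match of this length is a description of the letters, and binding was not measured.

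The tissue and the labels were checked first. All 4 measured markers of cortical excitatory neurons passed the filter on low values (a mean over 5.15 on the log2 scale). Of the markers of adjoining tissue, 2 of 4 for olfactory and ventricular tissue passed, and 3 of 4 measured for striatal neurons. On Fyn probe set 1417558_at control saline replicate 2, by its label, had 8.74, in the range of Fyn null pools, while Fyn null saline replicate 4 had 9.45, in the range of controls. On the second Fyn probe set, 1448765_at, they had 7.53 and 7.75. There the genotypes overlapped, at 7.53 to 7.95 in controls and 7.50 to 7.81 in Fyn null pools, so it does not separate the labels. Among the Fyn probe sets, the doubt on these pools thus rests on 1417558_at. Calls of member probe sets that changed without these pools are given both ways. Ethanol pools also differed from saline pools in 3' minus 5' signal of Gapdh, at -0.05 to 0.10 against 0.11 to 0.53 (log2), and in the mean level of 5 endothelial markers, at 6.58 to 7.00 against 7.21 to 7.42. The 3' minus 5' signal of actin overlapped, at 0.71 to 1.15 after ethanol and 0.98 to 1.45 after saline. The part of the Gapdh signal or the endothelial markers in the ethanol responses below was not tested beyond a fit with the Gapdh value as a covariate. Because the Gapdh values of ethanol and saline pools do not overlap, a call lost in that fit cannot be assigned to either ethanol or the Gapdh signal.

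Of the 31 member probe sets 28 passed the filter on low values. Those left out were Camk2d 1456844_at (3.17 to 3.58), Camk2d 1444031_at (2.78 to 3.29) and Camk4 1421941_at (4.01 to 5.05). With limma, 0 of the 28 were called at an adjusted p under 0.05 in any of the 7 comparisons. The share of all 24770 probe sets called was 1.43% for the ethanol response in controls, 0.400% for that in Fyn null mice and 6.81% for ethanol against saline over both genotypes. It was 0% for the basal genotype difference, the genotype difference under ethanol, the genotype difference over both treatments and the interaction of genotype and ethanol.

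At an unadjusted p under 0.05 the members were counted against the same share of all probe sets. It held for 1 of 28 in the basal difference (1.89% of all probe sets), for 4 in the ethanol response of controls (18.9%), for 2 in that of Fyn null mice (11.7%) and for 3 in the interaction (4.13%). It held for 8 in the genotype difference under ethanol (13.6%), 7 in the ethanol response over both genotypes (24.3%) and 7 in the genotype difference over both treatments (11.1%). By direction, 7 of the 8 under ethanol were lower in Fyn null mice, against 4.45% of all probe sets, as were 6 of the 7 over both treatments, against 4.33%. Of the ethanol responses, 3 in controls were higher, against 6.02% of all probe sets, and 5 over both genotypes were higher, against 8.95%. Among these 5, Camkk2 1424476_at had a saline mean of 5.08, below the filter at 5.15, which it passed through its ethanol mean of 5.56. Camk2d 1459457_at, among the 2 of Fyn null mice, likewise had a saline mean of 5.12 over both genotypes and an ethanol mean of 5.34. Probe sets of 1 gene share their target, and 4 of the 7 that were lower under ethanol were those of Camk2a.

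The median log2 difference of the 28 probe sets was 0.06 for ethanol over both genotypes, beside -0.02 for all probe sets, and -0.09 for Fyn null against control under ethanol, beside 0.03. With 1 probe set per gene, that of the highest mean, the medians over 9 genes were -0.11 and -0.07, beside -0.04 and 0.04 over 12323 genes. The sign of the ethanol median thus turned with the choice of probe sets.

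**Figure D1:**
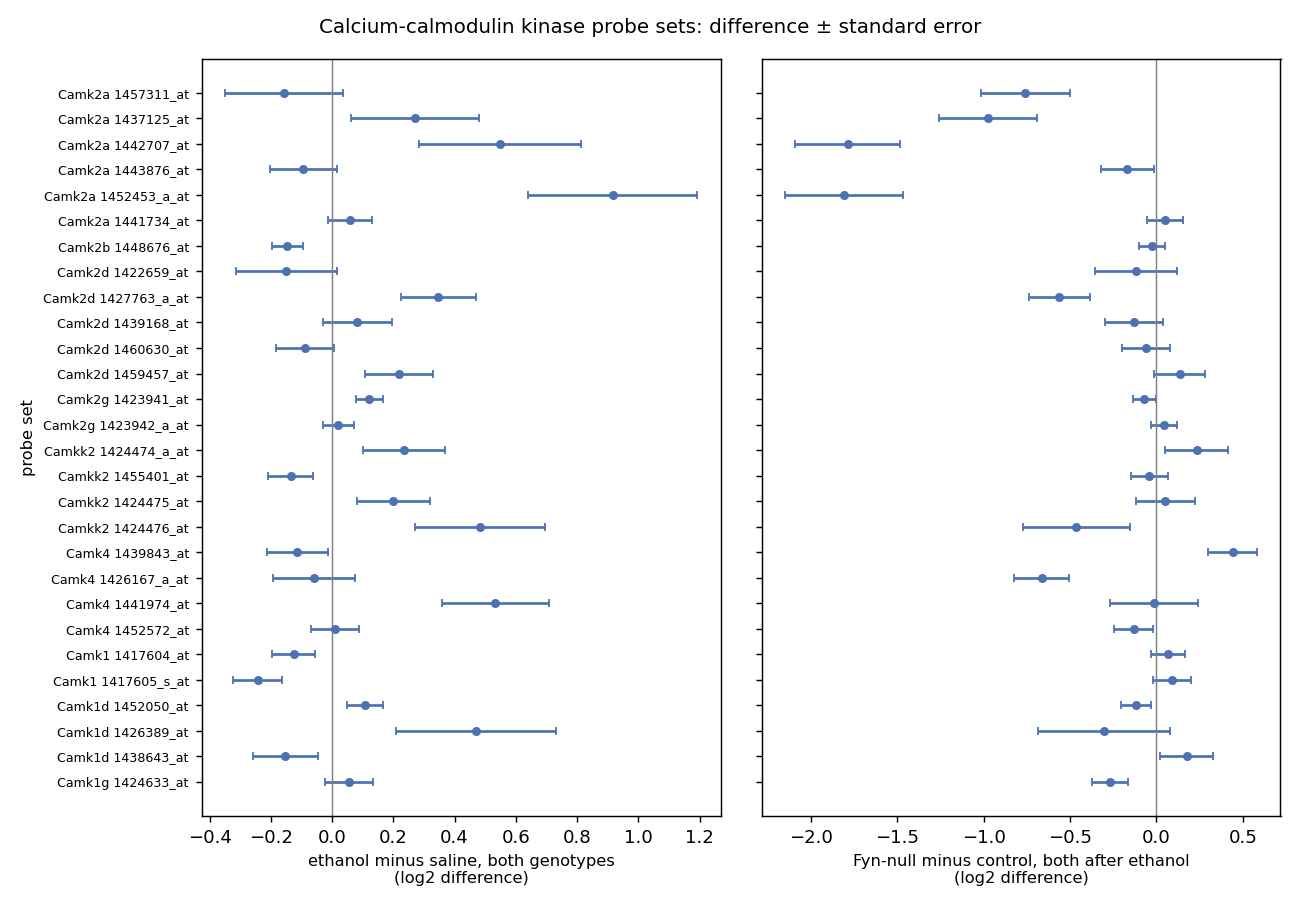
Log2 difference (x axis) with its standard error for each of the 28 tested member probe sets (y axis), ethanol minus saline over both genotypes on the left and Fyn null minus control after ethanol on the right. The points farthest from 0 are 2 Camk2a probe sets at -1.79 and -1.81 on the right, and 0 of the 28 passed the adjusted threshold in either comparison.

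Camk2a, the alpha subunit of CaMKII, showed the widest differences. On probe set 1442707_at the control saline pools had 9.35, 8.27 and 9.26, and the control ethanol pools 10.47, 10.34 and 9.51. The Fyn null saline pools had 8.05, 8.46 and 8.61, and the Fyn null ethanol pools 8.42, 8.58 and 7.96. The control ethanol pools thus lay above all other pools, and control saline replicate 2, the pool with the low Fyn signal, lay within the Fyn null range. Ethanol against saline in controls was at 1.15 (standard error 0.31, 2.22-fold, adjusted p = 0.0828), and Fyn null against control under ethanol at -1.79 (standard error 0.31, adjusted p = 0.0922). Neither passed the threshold, and the interaction was at -1.20 (standard error 0.43, adjusted p = 0.992).

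On probe set 1452453_a_at of Camk2a control pools had 6.96, 5.65 and 6.28 after saline and 8.28, 7.89 and 7.10 after ethanol. Fyn null pools had 5.30, 5.33 and 6.08 after saline and 6.04, 6.09 and 5.71 after ethanol. Again each control ethanol pool was above every other pool. The ethanol difference was 1.46 in controls (standard error 0.34, 2.75-fold, adjusted p = 0.0586) and 0.92 over both genotypes (standard error 0.28, adjusted p = 0.0624). The genotype difference under ethanol was -1.81 (standard error 0.34, adjusted p = 0.104), and the interaction was -1.08 (standard error 0.48, adjusted p = 0.992). Over the 12 arrays, which include these group differences, the log2 values of both probe sets had r = 0.96.

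The other Camk2a probe sets differed from each other. On 1437125_at control ethanol pools had 10.8, 10.7 and 10.3, above the highest of the other pools at 10.2, and the genotype difference under ethanol was -0.98 (standard error 0.28, adjusted p = 0.178). On 1457311_at the ethanol groups did not overlap either, at 12.03 to 12.60 in controls and 11.14 to 11.94 in the Fyn null group (difference -0.76, standard error 0.26, adjusted p = 0.226). Probe sets 1443876_at and 1441734_at had overlapping ethanol groups, with ranges over all pools of 7.67 to 8.40 and 5.86 to 6.30. Thus 4 of 6 Camk2a probe sets had separate ethanol groups, lower in Fyn null mice, and 2 did not. Separate ethanol groups, in either direction, occurred in 20.3% of all probe sets, and the probe sets of Camk2a share their target.

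**Figure D2:**
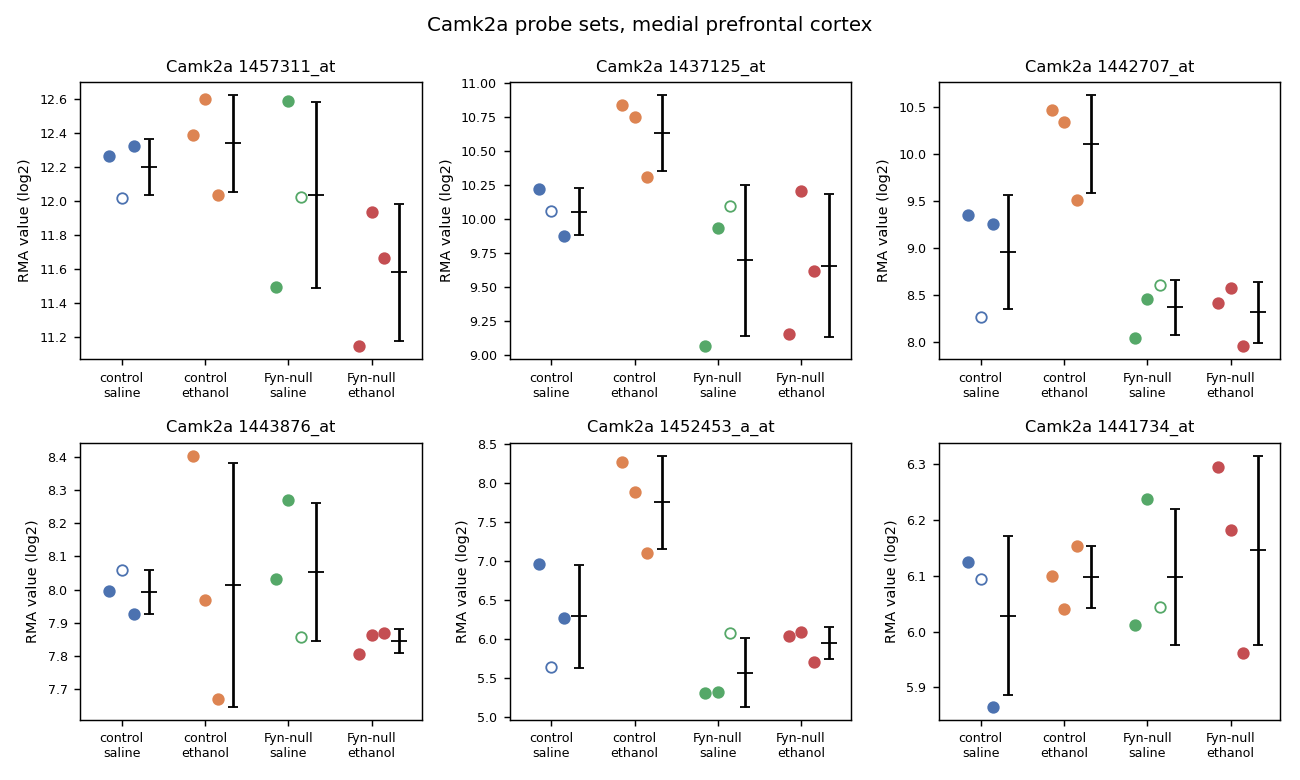
RMA value (y axis, log2) of each pool for the 6 Camk2a probe sets by group (x axis), with the mean and SD of 3 pools beside the points. Open points are the 2 saline pools whose signal on Fyn 1417558_at was in the range of the other genotype, and on 1442707_at, 1452453_a_at and 1437125_at the control ethanol pools lie above all others.

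The Camk2a calls depended on which pools were kept, how they were weighted and which groups were fitted together. Without both pools in doubt the genotype difference under ethanol passed for 1442707_at (adjusted p = 0.00822) and 1452453_a_at (adjusted p = 0.0125), and over both treatments for the same probe sets at -1.49 and -1.61. The pools in doubt are saline pools and do not enter the difference under ethanol. It stayed at -1.79 and -1.81, and its standard error fell from 0.31 and 0.34 to 0.24 and 0.26. Both probe sets also passed there with only the ethanol groups fitted (adjusted p = 0.0211 and 0.0226), where 193 of 24770 probe sets were called. Leaving out control saline replicate 2 alone also brought the genotype difference under ethanol past the threshold (adjusted p = 0.0255 and 0.0484), and that over both treatments (-1.41, adjusted p = 0.0136, and -1.47, adjusted p = 0.0232). With all pools the differences over both treatments were -1.19 and -1.27 (adjusted p = 0.316 for each). Leaving out both pools was chosen after seeing the data. On these probe sets control saline replicate 2 was the lowest control saline pool, at 8.27 and 5.65. Fyn null saline replicate 4 was the highest Fyn null saline pool, at 8.61 and 6.08. Leaving out these pools by itself widens the differences over both treatments and lowers the estimate of the spread. Calls without them are thus not independent evidence. The ethanol response in controls passed for both probe sets without control ethanol replicate 4, at 1.45 (adjusted p = 0.0411) and 1.78 (adjusted p = 0.0312). For 1452453_a_at it also passed without control saline replicate 1 (1.79, adjusted p = 0.0371) or Fyn null saline replicate 4 (1.46, adjusted p = 0.0473). The same probe set passed in ethanol against saline over both genotypes without both pools in doubt (0.88, adjusted p = 0.0375) or without Fyn null saline replicate 4 alone (1.09, adjusted p = 0.0275), and over both treatments without the latter (-1.44, adjusted p = 0.0453). With all pools kept and arrayWeights, 4 Camk2a probe sets passed under ethanol, where 16% of all probe sets did. Markers of cortical excitatory neurons, the cells in which Camk2a is best known, had a mean level of 9.25 to 9.39 in control ethanol pools. In Fyn null ethanol pools it was 8.92 to 9.22, without overlap. In that comparison 0 of the 4 genes were called. Since 0 of all 24770 probe sets were called there, that count cannot show whether the markers differed. The mean level was 9.12 to 9.45 in control saline, which spans the control ethanol range, and 8.98 to 9.23 in Fyn null saline pools. Its part was not tested, and in bulk tissue fewer cells and less RNA per cell cannot be told apart.

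By Pearson r over the 12 arrays, the genes most like 1452453_a_at were Xrn1 (0.930), A330076H08Rik (0.919), Tfb2m (0.919), Mettl27 (0.905) and Chd7 (0.901). For 1442707_at they were A330076H08Rik (0.938), Cdhr1 (0.929), Xkr6 (0.918), Lingo1 (0.907) and Tfb2m (0.891). A330076H08Rik and Tfb2m were in both sets. The arrays share the group differences, so these are descriptions of a pattern.

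The beta subunit of CaMKII, which ties the holoenzyme to actin filaments, gave opposite signs on its 2 probe sets. On 1448676_at saline pools had 9.78 to 9.97 and ethanol pools 9.65 to 9.73, without overlap (-0.15 over both genotypes, standard error 0.05, adjusted p = 0.0946). Groups of 6 that did not overlap occurred in 3.90% of all probe sets, and in 2 of 28 member probe sets. On 1455869_at, named Camk2b by the study's gene table only, control pools had 5.27, 4.94 and 4.56 after saline and 6.37, 5.94 and 5.51 after ethanol. The Fyn null pools had 5.21, 4.88 and 4.44 after saline and 5.61, 5.13 and 5.51 after ethanol. The signal rose by 0.80 over both genotypes (standard error 0.18, 1.74-fold, adjusted p = 0.0211), while the ranges overlapped in Fyn null mice. Its saline mean of 4.88 was below the filter at 5.15, so it entered the test through its ethanol pools alone. It did not pass without both pools in doubt (0.70, adjusted p = 0.0649) or with the Gapdh 3' to 5' value as a covariate (0.55, adjusted p = 0.426). The probe sets of Camk2b had r = -0.68 over the arrays.

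The other member probe set whose 6 saline and 6 ethanol pools were separate was Camk2g 1423941_at, of the gamma subunit, with 10.18 to 10.306 after saline and 10.315 to 10.44 after ethanol (0.12, standard error 0.04, adjusted p = 0.110). Its second probe set, 1423942_a_at, was at 0.02 (standard error 0.05). For the delta subunit, Camk2d, known best from heart muscle, 5 of 7 probe sets were tested. On 1427763_a_at control pools had 6.45, 6.17 and 6.35 after saline and 6.84, 6.79 and 6.58 after ethanol. Fyn null pools had 6.02, 5.41 and 6.27 after saline and 6.30, 6.04 and 6.18 after ethanol. The ethanol groups were separate, with a genotype difference of -0.56 (standard error 0.18, adjusted p = 0.206), and the difference over both treatments was -0.49 (standard error 0.12, adjusted p = 0.316). The latter was -0.61 (adjusted p = 0.0126) without both pools in doubt and -0.58 (adjusted p = 0.0479) without Fyn null saline replicate 4 alone. Without that pool the ethanol response over both genotypes also passed, at 0.44 (adjusted p = 0.0297) against 0.35 (adjusted p = 0.101) with all pools. Fyn null saline replicate 4 was the highest pool of its group, at 6.27, and control saline replicate 2 the lowest of its own, at 6.17. Leaving out such pools by itself widens the difference over both treatments, so these calls are not independent evidence. The other 4 tested Camk2d probe sets had genotype differences under ethanol between -0.13 and 0.13.

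Camk4, the nuclear kinase that phosphorylates CREB, had probe sets that moved in opposite directions. On 1439843_at the control pools had 9.70, 10.14 and 9.73 after saline and 9.67, 9.72 and 9.52 after ethanol. The Fyn null pools had 10.24, 10.24 and 9.77 after saline and 10.07, 10.04 and 10.12 after ethanol. On 1426167_a_at control pools had 6.95, 6.57 and 7.12 after saline and 7.27, 7.07 and 6.98 after ethanol, and Fyn null pools 6.50, 6.73 and 7.13 and then 6.49, 6.43 and 6.40. On both probe sets the saline pools in doubt stood with the other genotype, control saline replicate 2 at 10.14 and 6.57 and Fyn null saline replicate 4 at 9.77 and 7.13.

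Under ethanol the Camk4 groups were separate on both, at 0.44 (standard error 0.14, adjusted p = 0.207) for 1439843_at and -0.66 (standard error 0.16, adjusted p = 0.135) for 1426167_a_at, with r = -0.83 between them. Groups of 3 without overlap under ethanol occurred in 11 of 28 member probe sets and in 20.3% of all probe sets. Without both pools in doubt both passed under ethanol (adjusted p = 0.0291 and 0.0152), and the differences over both treatments were 0.47 (adjusted p = 0.00187) and -0.56 (adjusted p = 0.0047), against 0.33 (adjusted p = 0.334) and -0.38 (adjusted p = 0.355) with all pools. Under ethanol the differences stayed at 0.44 and -0.66, since saline pools do not enter them, and the standard errors fell to 0.08 and 0.10. The pools left out, a choice made after seeing the data, are those whose Camk4 values stood with the other genotype. Their removal by itself widens the differences over both treatments, so those calls are not independent evidence. The calls under ethanol rest on the smaller standard errors that this choice gave, so they are not independent evidence either. Because the signs were opposite, no direction is given for Camk4 as a gene. Probe set 1441974_at was at 0.53 for ethanol over both genotypes (standard error 0.17, adjusted p = 0.0809) and at -0.07 with the Gapdh covariate. Probe set 1452572_at was at 0.01.

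**Figure D3:**
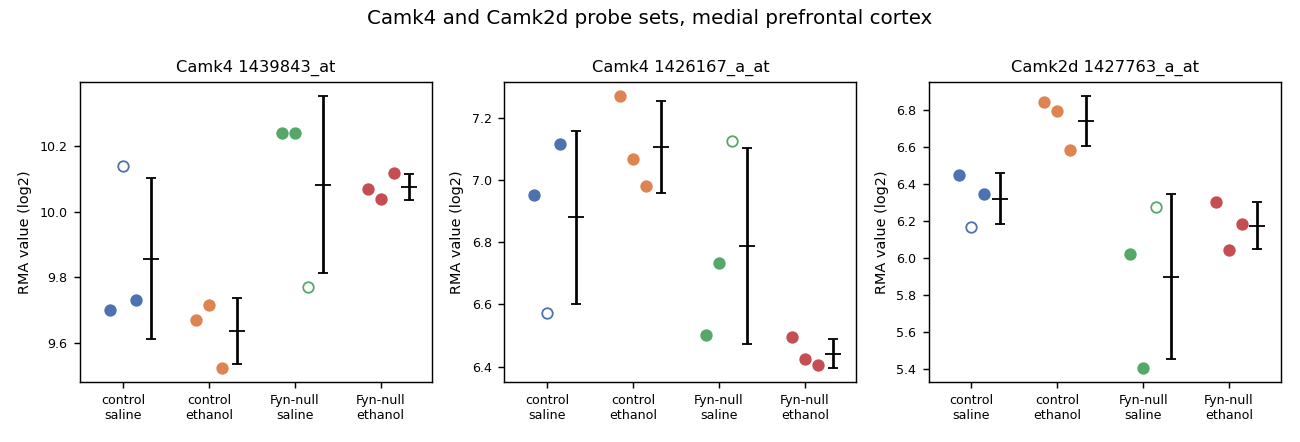
RMA value (y axis, log2) of each pool by group (x axis) for 2 Camk4 probe sets and for Camk2d 1427763_a_at, with the mean and SD of 3 pools. Open points are the saline pools in doubt, which stand with the other genotype on both Camk4 probe sets (9.77 and 10.14 on the first, 7.13 and 6.57 on the second).

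Of the kinase kinases, Camkk1 was read by 1418954_at, named by the study's gene table only. It was 9.25, 9.27 and 9.40 in control saline pools and 9.60, 9.69 and 9.58 in control ethanol pools. It was 9.24, 9.41 and 9.15 in Fyn null saline and 9.71, 9.60 and 9.72 in Fyn null ethanol pools. All 6 ethanol pools were above all 6 saline pools. The signal rose by 0.36 over both genotypes (standard error 0.06, 1.28-fold, adjusted p = 0.00435). It was at 0.31 in controls (adjusted p = 0.0869) and 0.41 in Fyn null mice (adjusted p = 0.0656), with an interaction of 0.09 (standard error 0.12, adjusted p = 0.992). The adjusted p over both genotypes was 0.00146 to 0.0489 over all alternatives run, the highest with the Gapdh covariate.

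**Figure D4:**
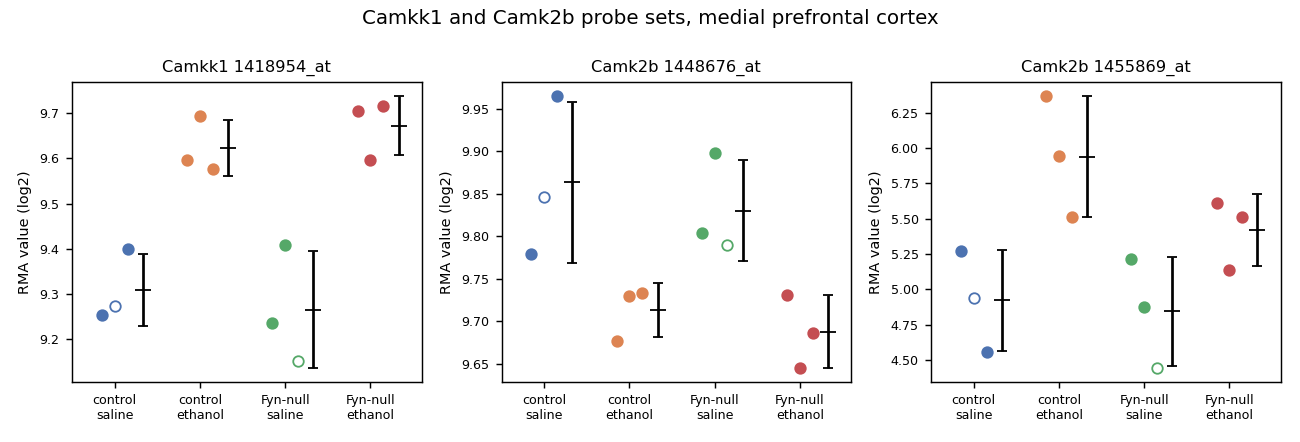
RMA value (y axis, log2) of each pool by group (x axis) for Camkk1 1418954_at and for both Camk2b probe sets, with the mean and SD of 3 pools; open points are the saline pools in doubt. Camkk1 lies at 9.15 to 9.41 after saline and 9.58 to 9.72 after ethanol, and the Camk2b probe sets go in opposite directions.

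Camkk2, which also phosphorylates the AMP-activated kinase, had 4 probe sets, and 0 passed in the fit with all pools weighted alike. Its probe set of the highest mean, 1424474_a_at, was 10.23, 10.22 and 9.94 in control saline and 10.50, 10.25 and 9.85 in control ethanol pools. Fyn null pools had 9.71, 10.01 and 10.37 after saline and 10.32, 10.33 and 10.65 after ethanol, so the groups overlapped in both genotypes. Its Fyn null pools differed by 0.40 after ethanol (standard error 0.18, adjusted p = 0.432) and its control pools by 0.07 (standard error 0.18, adjusted p = 0.865), and the interaction was 0.33 (standard error 0.26, adjusted p = 0.992). With arrayWeights the Fyn null response passed for 1424474_a_at (0.64, adjusted p = 0.0121) and 1424475_at (0.46, adjusted p = 0.0277), where 11.2% of all probe sets were called, against 0.400% with all pools weighted alike. Over both genotypes the 4 probe sets were at 0.23, -0.14, 0.20 and 0.48, and the last, 1424476_at, had a standard error of 0.21 (adjusted p = 0.183). The saline mean of 1424476_at, at 5.08, was below the filter on low values.

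Camk1, a cytoplasmic kinase and a substrate of the kinase kinases, had no probe set past the threshold. On 1417605_s_at, whose suffix marks probes that can match several transcripts, control pools had 8.23, 8.12 and 8.46 after saline and 7.84, 7.89 and 8.03 after ethanol, without overlap. The difference was -0.35 in controls (standard error 0.11, adjusted p = 0.126) and -0.24 over both genotypes (standard error 0.08, adjusted p = 0.0815). Such separate control groups occurred in 7 of 28 member probe sets and in 23.0% of all probe sets. The second Camk1 probe set, 1417604_at, was at -0.13 (standard error 0.07).

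Camk1d and Camk1g, kinases of the same family found in neurons, also did not pass in the fit with all pools weighted alike. With arrayWeights Camk1d 1426389_at passed in the Fyn null response (0.92, adjusted p = 0.0473), where 2781 of 24770 probe sets were called. Camk1g 1424633_at then passed in the genotype difference under ethanol (-0.31, adjusted p = 0.0206), where 3975 were called. The 3 Camk1d probe sets were at 0.11 (1452050_at), 0.47 (1426389_at) and -0.15 (1438643_at) for ethanol over both genotypes. Values of 1426389_at ran from 5.19 to 7.53 over the pools, with the lowest in Fyn null saline replicate 3. Camk1g 1424633_at was 9.07, 9.40 and 9.26 in control ethanol and 8.99, 8.97 and 8.97 in Fyn null ethanol pools (-0.27, standard error 0.10, adjusted p = 0.279), and its saline groups overlapped.

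The proteins around the kinases were read from 6 lists, of which 49 of 55 genes were measured, each on its probe set of the highest mean. The shares of all probe sets beside them count every tested probe set, so they are not shares of genes. In ethanol against saline over both genotypes 3 rose and 3 fell of these 49, where 6.81% of all probe sets were called, and their median was -0.03. With the Gapdh covariate 0 of these 6 genes passed, at adjusted p from 0.108 to 0.476, where 0.444% of all probe sets were called. In the other 6 comparisons 0 were called.

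Of the 8 measured partners and substrates of CaMKII, 1 rose and 1 fell. Cpeb1, which binds mRNA and starts its polyadenylation when CaMKII phosphorylates it, was 7.82, 7.91 and 8.10 in control saline and 8.64, 8.62 and 8.57 in control ethanol pools. Fyn null pools had 8.18, 7.89 and 7.52 after saline and 8.78, 8.31 and 8.28 after ethanol. The rise was 0.63 (standard error 0.11, adjusted p = 0.00633), and all ethanol pools were above all saline pools. Arc, an activity-induced protein of dendrites, fell by 0.83 (standard error 0.23, adjusted p = 0.0472), from 8.84 to 10.42 after saline to 8.32 to 9.12 after ethanol, with overlap. The Arc call did not hold under 17 of 20 alternatives. Over all 20 the difference lay between -0.99 and -0.64 (adjusted p from 0.0203 to 0.4499). Of the arrays left out in turn, the call held without control saline replicate 2 and without Fyn null saline replicate 2 and for no other.

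In the 15 targets of the kinase kinase cascade, 2 fell. Hdac5, a histone deacetylase that leaves the nucleus once CaM kinases phosphorylate it, fell by 0.30 (standard error 0.06, adjusted p = 0.0173), from 9.24 to 9.56 after saline to 8.94 to 9.11 after ethanol, without overlap. Crtc2, a coactivator of CREB, fell by 0.23 (standard error 0.05, adjusted p = 0.0284) on a probe set whose suffix, x_at, marks possible cross-hybridisation. Its ethanol mean of 5.12 was below the filter at 5.15, so it entered the test through its saline pools alone. The call did not hold under 10 of 19 alternatives, and over all 19 the adjusted p was 0.0188 to 0.384. These 10 included fits without control saline replicate 3, control ethanol replicate 1 or 4, or Fyn null saline replicate 3. They also included those without Fyn null ethanol replicate 2 or 3, and the difference in these left-out fits was -0.23 to -0.20. Of 9 other kinases with a calmodulin-dependent kinase domain, 1 rose, Dapk1, a death-associated kinase, by 0.28 (standard error 0.06, adjusted p = 0.0152).

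Of the 6 inhibitors and phosphatases, 1 rose, Ppp1r1b, which encodes the phosphatase inhibitor DARPP-32, by 0.21 (standard error 0.05, adjusted p = 0.0316). The call did not hold under 11 of 20 alternatives, and over all 20 the adjusted p was 0.0228 to 0.408. These 11 included fits without control saline replicate 2 or 3, control ethanol replicate 1 or 2, or Fyn null saline replicate 3. They also included those without Fyn null ethanol replicate 2 or 3, and the difference in these left-out fits was 0.19 to 0.22. Of the 7 genes of calcineurin and its regulators and the 4 measured genes of calmodulin and its reserves 0 were called. The lowest p in these was that of Rcan1, a calcineurin inhibitor, at 0.12 (adjusted p = 0.317), and of Pcp4, a calmodulin-binding peptide, at -0.08 (adjusted p = 0.334).

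In the comparisons without a call, the gene of lowest p in each list is given by its log2 difference. For the ethanol response in controls these were Ppp1r1b at 0.24, Ppp3cc, a catalytic subunit of calcineurin, at -0.37, Pcp4 at -0.09, Dapk1 at 0.30, Cpeb1 at 0.67 and Hdac5 at -0.31 (adjusted p from 0.0657 to 0.506). For that in Fyn null mice they were Ppp1r1b at 0.19, Rcan1 at 0.22, Pcp4 at -0.07, Dapk1 at 0.25, Cpeb1 at 0.59 and Crtc2 at -0.25 (adjusted p from 0.179 to 0.771). The controls and Fyn null mice of these responses are separate pools, and neither response of any of these genes passed.

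For the genotype difference under ethanol they were Ppp1r1b at -0.16, Ppp3cc at 0.37, Gap43, a calmodulin-binding protein of growth cones, at -0.25, Phkg2, a subunit of phosphorylase kinase, at 0.19, Grin2b, the NMDA receptor subunit that docks CaMKII, at 0.49 and Crem, a relative of CREB, at 0.35 (adjusted p from 0.219 to 0.449). Over both treatments they were Ppp1r1b at -0.13, Rcan3 at 0.13, Gap43 at -0.14, Phkg2 at 0.11, Grin2b at 0.34 and Crtc2 at 0.15 (adjusted p from 0.355 to 0.631). For the basal difference they were Camk2n2, an inhibitor protein of CaMKII, at -0.12, Ppp3cb at -0.07, Pcp4l1 at 0.07, Mylk at -0.07, Gria1 at 0.13 and Prkaa2, a catalytic subunit of the AMP-activated kinase, at -0.47 (adjusted p of 1.00 for each). For the interaction they were Camk2n1 at -0.11, Ppp3cc at 0.42, Gap43 at -0.22, Phkg2 at 0.17, Arc at -0.61 and Mef2d at 0.18 (adjusted p of 0.992 for each).

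**Figure D5:**
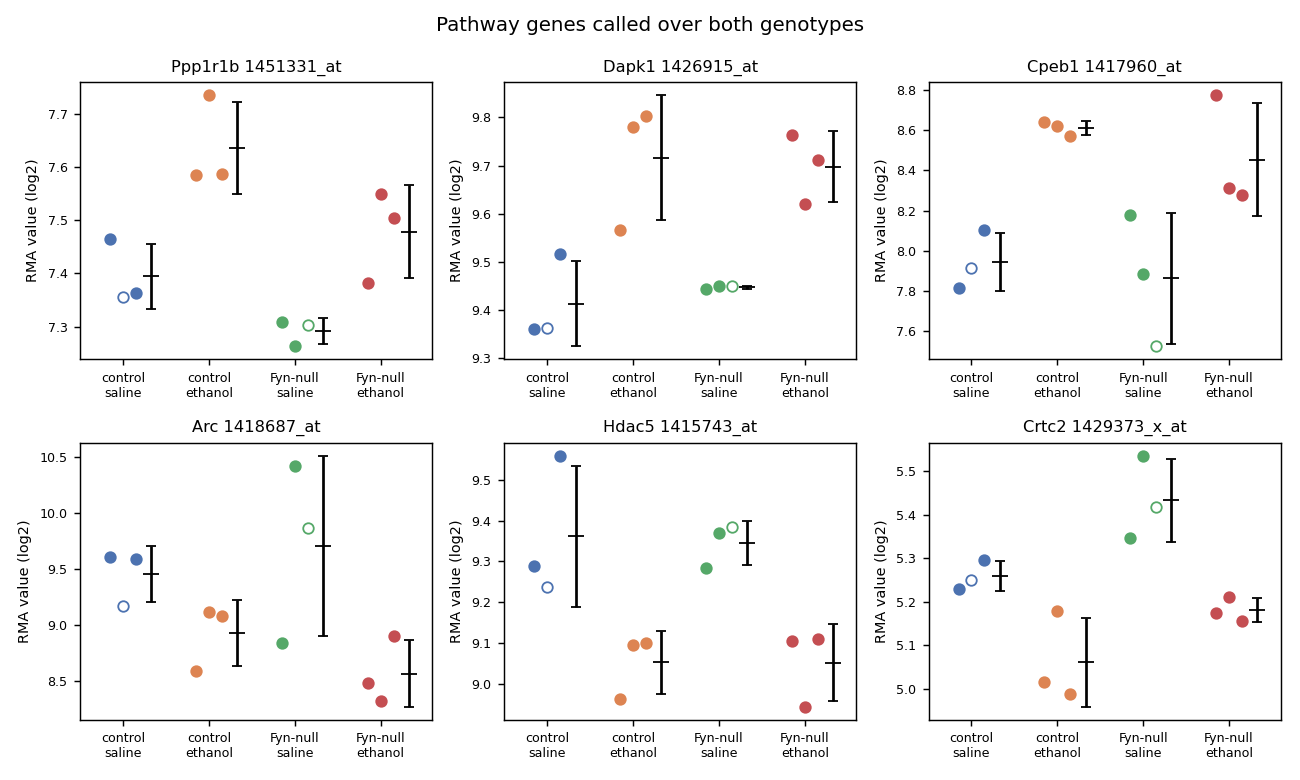
RMA value (y axis, log2) of each pool by group (x axis) for the 6 pathway genes called in ethanol against saline over both genotypes, with the mean and SD of 3 pools; open points are the saline pools in doubt. Cpeb1, Dapk1 and Ppp1r1b are higher after ethanol and Arc, Hdac5 and Crtc2 lower, with Arc at 8.84 to 10.42 after saline and 8.32 to 9.12 after ethanol.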

How the data were processed

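PFC RNA was hybridised to Affymetrix whole-genome mouse arrays. The authors deposited log2 values, 1 for each probe set and array, computed with affy and RMA per the submitters' processing notes. Not given in the sources used here are versions and the genome build. The Methods describe a step against hybridisation batch effects without stating whether the RMA values had passed through it. Control probe sets (64) and the lowest 45% by mean were left out. For the remaining 24770, lmFit and eBayes of limma (version 3.58.1, R version 4.3.3) were used. The 4 group means gave the ethanol, genotype and interaction comparisons, and additive terms the comparisons over both genotypes or both treatments. Calls used a Benjamini-Hochberg adjusted p under 0.05 over all probe sets. Pathway genes were read on the probe set with the highest mean, naming up to 4 called genes per list, or that with the lowest p. Other lists are given by counts. Members and lists were chosen with earlier results of these data known. Replicate numbers were not used as pairs, since 3 of 13 pairs had a residual r over 0.1 (range -0.43 to 0.32). The fit was tested on simulated data. The alternatives were other filters, normalization, weights, variance models and left-out arrays, and, chosen after seeing the data, leaving out both pools in doubt, the same settings for the called pathway genes and the Gapdh 3' to 5' value as a covariate. The number of pools limits precision: the median standard error of a member's difference was 0.15 for 3 against 3 pools. Nothing says that pools were made from separate litters or days, so p-values measure the spread between these pools.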

Additional observations from a re-analysis of the deposited data

How the results depend on the processing

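For the basal genotype difference and the interaction, 0 member probe sets were called under every alternative run. Under ethanol the genotype difference called 8 of 28 with arrayWeights, whose estimation stopped short of its tolerance (16% of all probe sets), 3 with only the groups compared (0.779%) and 4 without both pools in doubt (1.05%). Over both treatments it called 5 without both pools (2.70%). The ethanol response called 3 with arrayWeights in Fyn null mice (11.2% of all probe sets) and 1 over both genotypes without both pools (5.28%). Leaving out each array in turn gave 0 to 2 calls for the ethanol response in controls, the ethanol response over both genotypes, and the genotype difference under ethanol and over both treatments; the interaction, the basal difference and the ethanol response in Fyn null mice stayed at 0. The arrays that gave calls were control saline replicates 1 and 2, control ethanol replicate 4 and Fyn null saline replicate 4. All probe sets called over both genotypes numbered 1686, and 110 with the Gapdh covariate, 710 with the replicate block and 770 without Fyn null ethanol replicate 2. Cpeb1, Dapk1 and Hdac5 passed under every alternative run but the Gapdh covariate. With the replicate block 0 members were called in each of the 7 comparisons, and Camkk1 was at 0.38 over both genotypes (adjusted p = 0.00779). Camk4 1441974_at turned to -0.068 with the Gapdh 3' to 5' covariate; the cause was not tested. In the 4 group and 2 additive comparisons and the interaction 19 to 28 of the 28 tested member probe sets kept their sign, except that the stricter filter on low values left 22 to test, all with the same sign. The mean of all probe sets gave no value for single probe sets, and the fit of only the groups compared was not run for the interaction or the additive comparisons.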

Other observations

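The probe sets named by the study's gene table only were also set against all genes by Pearson r of log2 values over the 12 arrays, a choice made after their values were seen. The genes most like Camkk1 1418954_at were Arrdc2, an alpha-arrestin (0.966), Cebpa, a bZIP transcription factor (0.958), Golm1, a Golgi protein (0.952), Slc2a1, a glucose transporter of the blood-brain barrier (0.948), and Tpst1, a tyrosine sulfotransferase (0.943). For Camk2b 1455869_at they were Lgi3 (0.918), Mphosph6 (0.914), Cited2 (0.900), Gm9895 (0.881) and Slc30a1, a zinc exporter (0.877). The arrays share the ethanol response, so these values describe a common pattern and carry no test.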
